A study of Homo sapiens with 2 samples.

Results

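Genes of mitochondrial respiration, the mitochondrial ribosome and protein import were compared in HepG2, a human hepatoma cell line. The cells were transfected with a locked nucleic acid (LNA) oligonucleotide, a chemically stabilised antisense strand, against the noncoding transcript TUC338 or with a control LNA. Each condition was measured on 1 array, so no test was possible and no difference below has a replicate check. The members were all genes whose single symbol in the probe annotation starts with NDUF, SDHA to SDHD, UQCR, COX and a digit, ATP5, MRPL, MRPS, TIMM or TOMM. This gave 44 of the 2795 genes in the table, measured by 287 probe sets, each of which covers roughly an exon. There were 9 genes of complex I, 2 of complex II, 2 of complex III, 3 of complex IV, 3 of complex V, 4 assembly factors, 9 genes named for the large and 8 for the small subunit of the mitochondrial ribosome, and 4 import genes. The table holds a part of the genome, so many subunits of each machine were not analysed here.

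Both groups were the same cell line grown on collagen and treated with an LNA, and the knockdown is stated by the study to have been checked by experiment. The annotation names no probe set for TUC338, so that check could not be repeated here. The arrays held 45200 probe sets with a median intensity of 507 after knockdown and 422 with the control LNA. Of 14 hepatocyte markers 5 were in the table, with log2 levels of 9.98 to 12.64 with the control LNA and 10.53 to 12.92 after knockdown. Of 11 markers of immune, endothelial and stromal cells, the table held COL1A1 and PDGFRB, both of stromal cells. COL1A1 had 7.89 after knockdown and 8.51 with the control LNA, which is -0.90 relative to the median gene, and PDGFRB had 8.17 and 7.66, which is 0.22. Both had low levels, above those of 20.6% (COL1A1) and 10.3% (PDGFRB) of the genes in the table, against 91.4% to 99.9% for the 5 hepatocyte markers. What the low levels of these 2 genes in a cell line reflect was not tested. The deposited values were read as natural logs and converted to log2, a scale that no source used here states and that was inferred from the values. Read as log2, the differences would be smaller by a common factor, and MRPL4 and MRPS30 would no longer reach the 1.2-fold line used below. The median gene was 0.28 higher (log2) on the knockdown array. Single differences are therefore given as knockdown minus control relative to that median gene, unless called deposited values. The value of a gene is the mean over its probe sets, and the SD beside it is taken over probe sets of the same 2 arrays, so it does not measure the spread between cultures. In RNA from whole cultures, fewer cells with a transcript and less transcript per cell cannot be told apart.

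Mitochondria make most of the ATP of a hepatocyte through the respiratory chain. Complexes I and II pass electrons from NADH and succinate to ubiquinone, complex III passes them to cytochrome c and complex IV to oxygen, and the proton gradient built on the way drives the ATP synthase, complex V. A few core subunits are encoded in mitochondrial DNA and translated by a dedicated ribosome, whose proteins are themselves encoded in the nucleus. All nuclear-encoded subunits enter through the TOM translocase of the outer membrane, and most then pass a TIM translocase of the inner membrane. The transcription factors NRF1, GABP of the ETS family, YY1 and the estrogen-related receptors are known to act at many of their promoters.

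Promoter sequences are shown for TIMM44, the member with the highest difference between the arrays, for COX10, also among the highest, for COX4I1, the lowest of the members with a window, for the outer membrane pore gene TOMM40 and for UQCR11, which held 3 separate matches upstream of its start. RefSeq windows of 300 bases, 250 before and 50 from the gene start on (GRCh38.p14), were used for 39 of the 44 members, not including NDUFC2, the lowest member, SDHC, COX11, MRPL21 and COX3. The letters searched on both strands were GCGCANGCG for NRF1, CCGGAAGT for ETS factors, AAGATGGC for YY1 and TCAAGGTCA for estrogen-related receptors. Capitals mark the matches, and positions count from the gene start, with negative numbers upstream. Each sequence reads 5′ to 3′ on the strand of its gene. The windows are chr19:7943667-7943791 on the minus strand for TIMM44, chr17:14069379-14069503 on the plus strand for COX10, chr16:85799570-85799694 on the plus strand for COX4I1, chr19:1605463-1605587 on the minus strand for UQCR11 and chr19:44891019-44891143 on the plus strand for TOMM40. Those of the first 4 genes are bases -125 to -1, and that of TOMM40 is bases -235 to -111.
TIMM44: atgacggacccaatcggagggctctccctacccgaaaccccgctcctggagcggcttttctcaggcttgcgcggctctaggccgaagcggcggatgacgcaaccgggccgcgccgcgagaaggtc
COX10: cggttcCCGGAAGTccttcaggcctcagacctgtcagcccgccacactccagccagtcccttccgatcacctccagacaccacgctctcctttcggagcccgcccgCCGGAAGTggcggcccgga
COX4I1: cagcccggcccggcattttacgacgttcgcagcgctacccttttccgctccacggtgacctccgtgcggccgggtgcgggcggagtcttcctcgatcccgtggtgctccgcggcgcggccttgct
UQCR11: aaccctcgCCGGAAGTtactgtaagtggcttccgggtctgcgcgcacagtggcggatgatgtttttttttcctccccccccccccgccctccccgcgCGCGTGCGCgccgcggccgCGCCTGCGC
TOMM40: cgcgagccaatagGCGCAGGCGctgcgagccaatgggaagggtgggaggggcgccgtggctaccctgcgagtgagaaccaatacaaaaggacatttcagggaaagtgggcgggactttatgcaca

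COX10 held the ETS letters at bases -119 to -112 and again at -19 to -12. Past the stretch shown, it also held the YY1 letters at bases 28 to 35. UQCR11 held the ETS letters at -117 to -110 and the NRF1 letters at -28 to -20 and -9 to -1. TOMM40 held the NRF1 letters at -222 to -214. None of the 4 sets of letters was found in the windows of TIMM44 and COX4I1. The YY1 letters were found just past the start of 4 of the 8 genes named for the small ribosomal subunit, and the first 30 bases of those 4 are shown because MRPS18A and MRPS30 were the highest of that group. They lie at chr6:43687762-43687791 on the minus strand for MRPS18A, chr5:44808947-44808976 on the plus strand for MRPS30, chr6:42217832-42217861 on the minus strand for MRPS10 and chr5:72320211-72320240 on the minus strand for MRPS27.
MRPS18A: aggtttttgAAGATGGCggccctcaaggct
MRPS30: ggaatcgcgggcaAAGATGGCggcggccag
MRPS10: gggaccggcAAGATGGCggcgcggacagcg
MRPS27: ccttttggtacgctccAAGATGGCtgcctc

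The YY1 letters start at base 10 in MRPS18A and MRPS10, at base 14 in MRPS30 and at base 17 in MRPS27. They were found in 8 of the 39 member genes (20.5%), against 8.14% of 2372 genes of the array table with a window and 3.52% of all 27305 genes searched. The ETS letters were found in 8 members (20.5%, against 11.3% and 4.95%), the NRF1 letters in 10 (25.6%, against 18.4% and 9.02%) and the receptor letters in 1, SDHD (2.56%, against 0.253% and 0.432%). The only overlapping matches among members were of the NRF1 letters with one another, in NDUFA8 and SDHD. The median difference between the arrays was -0.07 for members with the NRF1 letters and 0.05 for those without, 0.09 and 0.0080 for ETS, and 0.10 and 0.02 for YY1. The SD over the 44 members was 0.21, and whether the difference goes with any of these letters was not tested. The NRF1 letters were shortened after a longer form, the same letters followed by C, had been searched. That form was found in 7 members (17.9%, against 13.9% and 6.98%), with medians of -0.04 for members with it and 0.04 for those without. A match describes letters in this window and is no measurement of binding.

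In their difference between the arrays, the mitochondrial genes as a whole lay near the median gene, and they spread less than the genes of the table did. Their median difference was 0.01, against 0.00 by construction for all genes, with quartiles of -0.06 and 0.15 against -0.18 and 0.18. The SD over genes was 0.21 for the 44 members and 0.31 for all genes. It was also 0.31 for the 1688 genes with 4 to 14 probe sets, the range of the members. That comparison was not matched for level. With all genes split by level, the SD was 0.33 for the dimmest 932, 0.31 for the middle 931 and 0.29 for the brightest 932. These groups held 4, 14 and 26 of the members. How much of the narrower spread of the members goes with their level was not tested. The 58 other genes of these pathways counted further below had an SD of 0.20. No member reached 1.5-fold in either direction, where 2.25% of all genes lay that far above the median gene and 3.97% that far below. At a smaller fold of 1.2, chosen after the values were seen, 5 members lay above (11.4%, background 16.5%), namely TIMM44, MRPS18A, COX10, MRPL4 and MRPS30. A further 2, NDUFC2 and COX4I1, lay 1.2-fold or more below (4.55%, background 18.6%). The line counted first was a difference of 25%, which 3 members passed above (background 11.6%) and 2 below (background 14.6%). Every probe set lay above the median gene in 4 members (9.09%), against 7.33% of genes with at least 4 probe sets and 9.12% of those with 4 to 14. Every probe set lay below it in 2 (4.55%, against 9.04% and 11.4%). The narrower spread went with a like spread inside genes, since the SD between probe sets of a gene, pooled over genes, was 0.29 for the members and 0.28 for all genes. The plot of cumulative shares sets the 44 genes against the whole table.

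**Figure D1:**
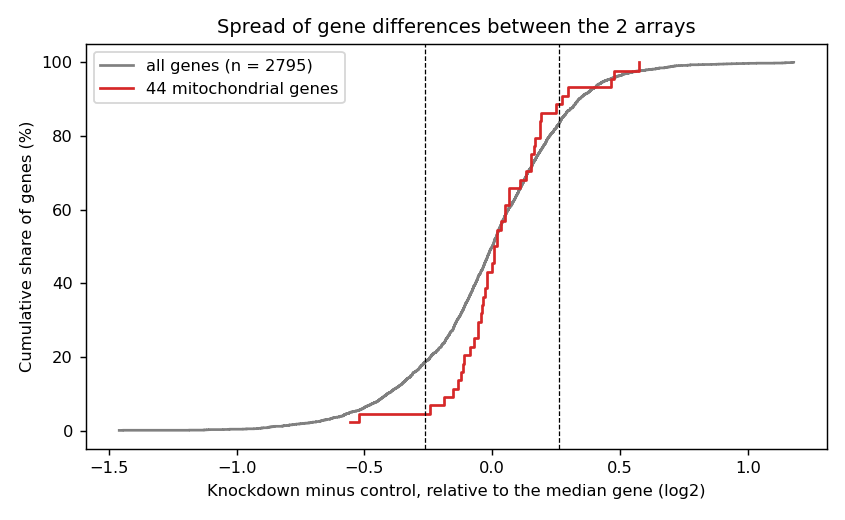
Cumulative share of genes (%) against the difference knockdown minus control relative to the median gene (log2), for all 2795 genes (grey) and the 44 mitochondrial genes (red), with dashed lines at 1.2-fold. The red curve climbs within a narrower range, with quartiles of -0.06 and 0.15 against -0.18 and 0.18 in grey.

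In deposited values, before the offset between the arrays was taken off, 42 of the 44 members were higher on the knockdown array (95.5%, background 82.9%), and NDUFC2 and COX4I1 were the remaining 2. On that scale 26 members lay 1.2-fold or more above the control and 1 below, where 53.1% of all genes lay above and 5.08% below by that fold. The split at 1.2-fold thus went from 5 and 2 to 26 and 1. TIMM44, MRPS18A and COX10 reached 1.5-fold above the control in deposited values (background 13%, with 0.966% that far below). The difference from the median gene was larger than the gene's own SD over probe sets in 8 members (18.2%), against 34.2% of 2744 genes with at least 4 probe sets. These were TIMM44, MRPS18A, COX10, MRPL4 and UQCR11 above and NDUFC2, COX4I1 and MRPL20 below. Of the 287 member probe sets, 159 (55.4%) lay above the median gene, where the background was 47.9%. The plot of all members shows each gene by machine.

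**Figure D2:**
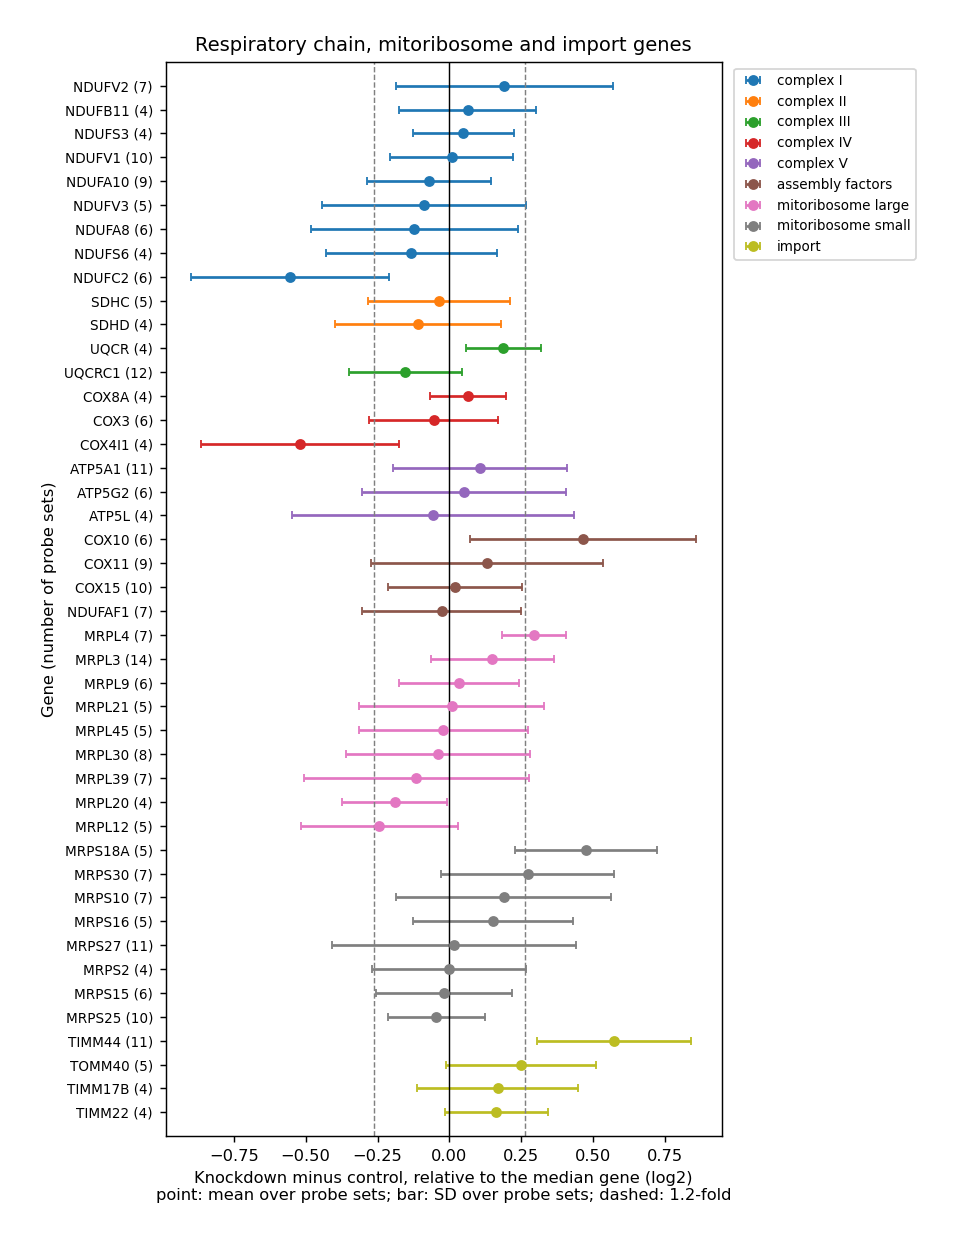
Difference knockdown minus control relative to the median gene (log2) for each of the 44 genes, as the mean (point) and SD (bar) over its probe sets, coloured by machine, with the number of probe sets in brackets and dashed lines at 1.2-fold. TIMM44, MRPS18A, COX10, MRPL4 and MRPS30 lie right of the dashed lines and NDUFC2 and COX4I1 left of them; ATP5A1, ATP5G2, ATP5L and UQCR are the annotation's names for ATP5F1A, ATP5MC2, ATP5MG and UQCR11.

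Complex I, the NADH dehydrogenase, had a median of -0.07 over 9 genes, with 4 above and 5 below the median gene. NDUFC2, a small membrane-arm subunit, was the lowest of the 44 members. Its mean log2 level was 9.52 after knockdown and 9.79 with the control LNA, a difference of -0.55 ± 0.34 (SD, 6 probe sets), or 1.47-fold lower. It was lower on the knockdown array at each of the 6 probe sets also in deposited values, with a mean deposited difference of -0.27. The dimmest of them, at 6.38 after knockdown and 7.32 in the control, differed most (-1.22), and without it the mean was -0.42. The RefSeq table gives a read-through gene, NDUFC2-KCTD14, that overlaps NDUFC2, so its probe sets may also read that transcript. The gene THRSP overlaps NDUFC2 there too, and whether probe sets read THRSP was not tested.

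The flavoprotein subunits, where NADH is oxidised, lay near the median gene. NDUFV2, an iron-sulfur subunit, was the highest of complex I, with 9.67 after knockdown and 9.20 with the control LNA, a difference of 0.19 ± 0.38 over 7 probe sets. That value rested on 1 probe set at 1.0, without which the mean was 0.06. NDUFV1, which binds the flavin and NADH, lay at 0.0080 ± 0.22 over 10 probe sets, and the accessory subunit NDUFV3 at -0.09 ± 0.36. In the arm that links flavin to quinone, NDUFS3 lay at 0.05 ± 0.17 and NDUFS6 at -0.13 ± 0.30. The accessory subunits NDUFB11 (0.06 ± 0.24), NDUFA10 (-0.07 ± 0.22) and NDUFA8 (-0.12 ± 0.36) also lay within 1 SD of the median gene. Leaving out single probe sets moved the mean of NDUFB11 between -0.06 and 0.11, so its side of the median gene was not fixed. The same held for NDUFS3 (-0.03 to 0.10), NDUFV1 (-0.02 to 0.06) and NDUFV3 (-0.18 to 0.04). In other machines too, means near the median gene changed side in this way, among them those of SDHC and SDHD. Counts of members above and below the median gene thus depend in part on single probe sets.

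Complex II, succinate dehydrogenase, was represented by its membrane anchor subunits, which hold the quinone site. The level of SDHC was 9.32 after knockdown and 9.07 with the control LNA, a difference of -0.04 ± 0.25 over 5 probe sets. SDHD had 8.56 and 8.38, a difference of -0.11 ± 0.29 over 4. Both were thus higher in deposited values and slightly below the median gene after the offset. In SDHD 1 probe set was lower on the knockdown array, at 8.82 against 9.04, and differed by -0.51. It was the brightest by its mean over the 2 arrays and the only one above the array-wide median level. The other 3 lay between -0.11 and 0.15.

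In complex III, UQCRC1, a core subunit, and UQCR11, a small membrane subunit, lay on opposite sides of the median gene. UQCR11 had 8.69 after knockdown and 8.22 with the control LNA, a difference of 0.19 ± 0.13, with each of 4 probe sets above the median gene. The 4 values ran from 0.04 to 0.31. UQCRC1 had 10.46 and 10.33, a difference of -0.15 ± 0.20, and 9 of its 12 probe sets lay below the median gene.

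Complex IV, cytochrome c oxidase, had a median of -0.05 over 3 genes, and its members differed from one another. COX4I1, a nuclear subunit involved in the regulation of the enzyme by ATP, had 8.46 after knockdown and 8.69 with the control LNA, a difference of -0.52 ± 0.35 over 4 probe sets, or 1.43-fold lower. In deposited values 3 of the 4 probe sets were lower in the knockdown, and the remaining one was higher, at 9.58 against 9.35. The brightest probe set had 9.79 and 9.99, and the dim pair 7.13 against 7.70 and 7.33 against 7.73. With probe sets below the array-wide median level left out, the difference was -0.25, within 1.2-fold. COX8A, a small nuclear subunit, lay at 0.07 ± 0.13 over 4 probe sets, with 9.35 after knockdown and a deposited difference of 0.35.

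COX3, a core subunit encoded in mitochondrial DNA, was the only member transcribed outside the nucleus. Its level was 12.26 after knockdown and 12.03 with the control LNA, a difference of -0.05 ± 0.22 with 3 of 6 probe sets above the median gene. The table also held the neighbouring mitochondrial genes ATP6 and ATP8, which encode ATP synthase subunits and share a primary transcript with COX3. ATP6 had 13.03 and 13.02, a difference of -0.27 over 2 probe sets, and ATP8 had 10.81 and 10.93, a difference of -0.40 at 1 probe set. In deposited values ATP6 thus differed by 0.01 and COX3 by 0.23 between the arrays.

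The genes of complex V lay close to the median gene, with a median of 0.05 over 3. ATP5F1A, the catalytic head's alpha subunit, had 11.27 after knockdown and 10.87 with the control LNA, a difference of 0.11 ± 0.30 over 11 probe sets. Of these, 10 ran from -0.13 to 0.17, and the dimmest, with 8.66 against 7.41, stood apart at 0.97. ATP5MC2, one of the genes for the rotor's c subunit, had 10.33 after knockdown and a deposited difference of 0.33, which left a difference of 0.05 ± 0.35 over 6. ATP5MG, a membrane subunit, had 10.75 and 10.52, a difference of -0.06 ± 0.49, the largest SD among the members. Its 3 brighter probe sets lay between -0.38 and -0.20, and its dimmest at 0.67. The genes for these 3 subunits have 5 to 8 named pseudogenes each in the RefSeq table, and 24 of the 44 members have at least 1, so probe sets in copied sequence may read more than 1 locus. There, 23 of the 44 also overlap another gene, among them MRPS18A with RSPH9 and TIMM22 with ABR, and whether probe sets there read the neighbour was not tested.

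Among the assembly factors COX10 stood highest. COX10 makes heme O, the precursor of the heme A of complex IV, and COX15 converts heme O to heme A. The level of COX10 was 8.90 after knockdown and 8.15 with the control LNA, a difference of 0.47 ± 0.39 over 6 probe sets, or 1.38-fold higher. All 6 were higher in deposited values and 5 lay above the median gene, from -0.12 to 0.95. COX15 had 9.14 and 8.84, a difference of 0.02 ± 0.23 over 10 probe sets. The mean of COX10 was thus larger than its SD over probe sets, and that of COX15 was not; their difference was not tested. COX11, which delivers copper to complex IV, lay at 0.13 ± 0.40 over 9 probe sets, a mean that was 0.02 without its highest probe set. NDUFAF1, a complex I assembly factor, had 8.04 and 7.78, a difference of -0.03 ± 0.28 over 7.

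The mitochondrial ribosome had a median of 0.0086 over 17 genes, with 9 above and 8 below the median gene. The 9 genes named for the large subunit had a median of -0.02 and ranged from -0.24 to 0.30. MRPL4 was the highest of them, with 9.53 after knockdown and 8.95 with the control LNA, a difference of 0.30 ± 0.11, or 1.23-fold higher. Its 7 probe sets all lay above the median gene, from 0.18 to 0.47, and its SD was the smallest among the members. MRPL3 lay at 0.15 ± 0.21 with 10 of 14 probe sets above the median gene. At the low end, MRPL12, which sits in the stalk that recruits translation factors, had 9.92 and 9.88, a difference of -0.24 ± 0.27 over 5 probe sets. MRPL20 followed with 8.78 and 8.69, a difference of -0.19 ± 0.18 over 4. Both were still slightly higher on the knockdown array in deposited values, by 0.04 and 0.09. MRPL39 (-0.12 ± 0.39), MRPL30 (-0.04 ± 0.32), MRPL45 (-0.02 ± 0.29), MRPL21 (0.0086 ± 0.32) and MRPL9 (0.03 ± 0.21) lay within 1 SD of the median gene.

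The 8 genes named for the small subunit had a median of 0.08 and ranged from -0.04 to 0.48. MRPS18A was the highest, with 9.93 after knockdown and 9.18 with the control LNA, a difference of 0.48 ± 0.25, or 1.39-fold higher. Each of its 5 probe sets lay above the median gene, from 0.16 to 0.78, the brightest with 11.27 against 10.59. MRPS30 followed with 9.16 and 8.61, a difference of 0.27 ± 0.30, with 5 of 7 probe sets above. Despite their names, the proteins of both genes sit in the large subunit of the human mitochondrial ribosome. With both moved there, a grouping chosen after the values were seen, the median was 0.0086 over 11 large-subunit genes and 0.0078 over 6 small-subunit genes. The 4 genes with the YY1 letters shown above, MRPS18A, MRPS30, MRPS10 (0.19 ± 0.37) and MRPS27 (0.02 ± 0.43), had differences from 0.02 to 0.48. The members with these letters outside this group were COX10 at 0.47, MRPL45 at -0.02, UQCRC1 at -0.15 and MRPL20 at -0.19. The remaining small-subunit genes were MRPS16 (0.15 ± 0.28), MRPS2 (-0.0013 ± 0.27), MRPS15 (-0.02 ± 0.24) and MRPS25 (-0.04 ± 0.17).

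All 4 import genes lay above the median gene, with a median of 0.21, the highest of the 9 groups. Of their 24 probe sets, 21 lay above the median gene (87.5%, background 47.9%), among them all 11 of TIMM44. With dim probe sets left out, TIMM17B moved just below the median gene, to -0.0066. TIMM44, the inner membrane protein that tethers the HSP70 import motor to the translocase, was the highest of the 44 members. Its level was 9.28 after knockdown and 8.43 with the control LNA, a difference of 0.57 ± 0.27, or 1.49-fold higher, just under the 1.5-fold line. All 11 probe sets lay above the median gene, from 0.09 to 0.95, and leaving out single probe sets moved the mean between 0.54 and 0.62. It ranked 65 among the 2795 genes from the top. TOMM40, the pore of the outer membrane, had 9.30 and 8.77, a difference of 0.25 ± 0.26 with 4 of 5 probe sets above. TIMM17B, a subunit of the presequence translocase, had 9.28 and 8.83, a difference of 0.17 ± 0.28 over 4, and TIMM22, the core of the carrier translocase, had 9.72 and 9.27, a difference of 0.16 ± 0.18 over 4. The last 3 lay within their SD over probe sets. The plot of single probe sets shows MRPL4, NDUFC2, COX4I1 and the 3 highest members.

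**Figure D3:**
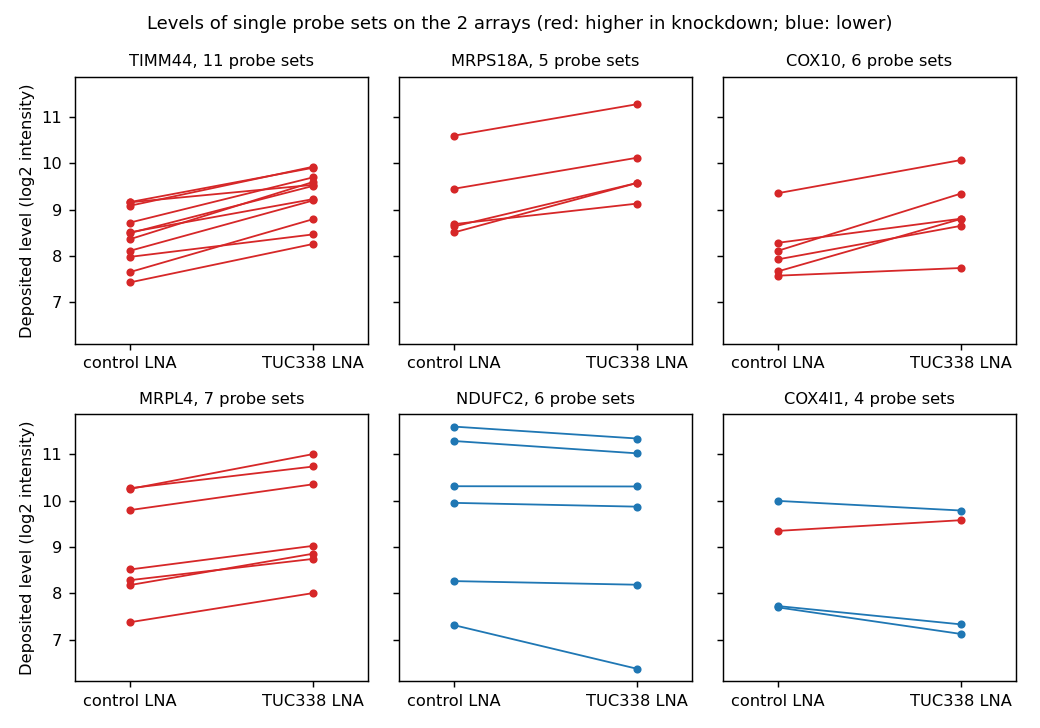
Deposited log2 intensity of each probe set of TIMM44, MRPS18A, COX10, MRPL4, NDUFC2 and COX4I1 on the control and the knockdown array, 1 line per probe set, red where the knockdown is higher and blue where it is lower. All lines of the first 4 genes slope up, all 6 of NDUFC2 slope down, and 3 of 4 of COX4I1 slope down, before the offset of 0.28 between the arrays is taken off.

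Other genes of the same pathways were counted in 6 lists, of which the table held 58 of 182 genes. Their median was 0.07, with 34 above and 24 below the median gene, none past 1.5-fold, 6 past 1.2-fold above it (10.3%, background 16.5%) and 4 past 1.2-fold below (6.90%, background 18.6%). Mitochondrial translation factors and aminoacyl-tRNA synthetases had a median of 0.13 over 10 genes, with 7 above. The highest was MTIF2, the initiation factor of the mitochondrial ribosome, with 9.49 after knockdown and 8.73 with the control LNA, a difference of 0.48 ± 0.29 and all 17 probe sets above the median gene. NARS2, the asparaginyl-tRNA synthetase, lay at 0.39 ± 0.25, and TRMU, a tRNA-modifying enzyme, was the lowest of that list at -0.18 ± 0.28. Genes of mitochondrial DNA upkeep, transcription and RNA had a median of 0.09 over 10 genes, 8 of them above, from LRPPRC, which stabilises mitochondrial mRNAs, at -0.11 ± 0.19 to TFB2M, a mitochondrial transcription factor, at 0.23 ± 0.19.

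The list of import partners, chaperones and proteases had a median of -0.06 over 13 genes, with 6 above and 7 below. HSPA9, the HSP70 of the import motor that TIMM44 tethers, had 10.64 after knockdown and 10.53 with the control LNA, a difference of -0.18 ± 0.29 with 4 of 16 probe sets above. OMA1, a stress-activated inner membrane protease, was the highest of that list, at 0.50 ± 0.23 with all 9 probe sets above. AIFM1, which takes part in the import of respiratory subunits and in cell death, was the lowest, at -0.43 ± 0.28 with 12 of 13 below. Prohibitin, listed as PHB, lay at -0.35 ± 0.22, and its partner PHB2 at 0.14 ± 0.17. The SDs are over probe sets here as elsewhere.

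Enzymes of the TCA cycle and of pyruvate entry, which feed the chain, had a median of -0.08 over 7 genes, with 3 above. OGDH, the oxoglutarate dehydrogenase, was the lowest, at -0.33 ± 0.19 where 19 of 20 probe sets lay below the median gene, and SUCLG1, of the succinyl-CoA ligase next in the cycle, was the highest at 0.18 ± 0.19. Assembly and cofactor factors outside the member symbols had a median of 0.03 over 11 genes, from ETFB, an electron carrier of fatty acid oxidation, at -0.23 ± 0.20 to COQ6, of ubiquinone synthesis, at 0.23 ± 0.43. Regulators and morphology genes had a median of 0.07 over 7. The fusion GTPase MFN1 was the highest of these, at 0.34 ± 0.33, and the ADP/ATP carrier SLC25A4 the lowest, at -0.45 ± 0.25 with all 4 probe sets below.

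**Figure D4:**
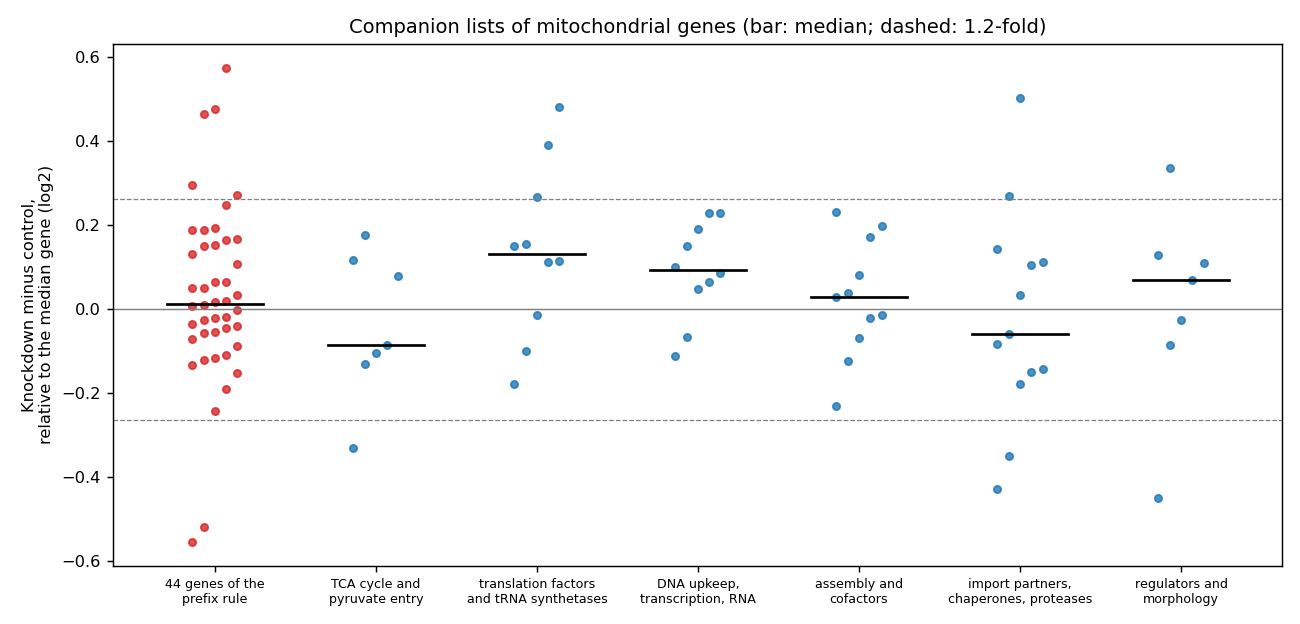
Difference knockdown minus control relative to the median gene (log2) for the 44 genes of the prefix rule (red) and for the genes of 6 companion lists (blue), 1 point per gene, with the median as a bar and dashed lines at 1.2-fold. The list medians lie between -0.08 and 0.13, and none of the points is as far as 1.5-fold from the median gene.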

How the data were processed

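RNA from 1 knockdown and 1 control culture of HepG2 was measured on 1 Affymetrix exon array each. The authors deposited 1 value per probe set; no source used here states its scale, normalization, software or genome build. Read as natural logs, the deposited values gave intensities that, under 2000, piled up on steps of 0.5 plus 1 residue (1154 of 41367 and 1167 of 42089 in the fullest bin, against means of 82.7 and 84.2). Read as log2, the fullest bins held 117 and 115, against a mean of 90.4. The natural log scale was thus inferred, and the deposited values were divided by the natural log of 2. Only the 42575 probe sets with 1 symbol were used; 4 member symbols were updated through RefSeq. Differences were averaged over the probe sets of a gene and centred on the median gene. Named are the highest and lowest member of each machine, members with all probe sets on 1 side, and, by value only, the rest. Members and lists were chosen with earlier results of these data known. With 1 array per group no test was run, and the number of arrays limits the precision. The procedure was tested on simulated data with planted differences larger than that of any member and with no spread between cultures. That test does not cover differences as small as those given here. Alternatives were deposited values, quantile and loess normalization (span 0.3), median or brightest probe set, a filter on dim probe sets, values read as log2 and updated symbols. Python 3.11.15, pandas 2.3.3 and statsmodels 0.14.6 were used.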

Additional observations from a re-analysis of the deposited data

How the results depend on the processing

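No paired analysis was possible because each group has 1 array and no test was run. In deposited values, which keep the offset of 0.28 between the arrays, the medians were 0.30 for all 44 genes, 0.21 for complex I, 0.21 for complex II, 0.30 for complex III, 0.23 for complex IV, 0.33 for complex V, 0.36 for assembly factors, 0.26 and 0.37 for the large and small ribosomal subunit and 0.49 for import, and 3 members were at least 1.5-fold higher. The companion lists then had 0.20 (TCA cycle), 0.42 (translation), 0.38 (DNA and RNA), 0.31 (assembly), 0.22 (import partners) and 0.35 (regulators). With the brightest probe set, the medians were -0.19 for complex II, 0.10 for complex IV, 0.18 for assembly factors, and 0.31 (translation), 0.23 (DNA and RNA) and -0.074 (assembly) for companion lists. With dim probe sets left out, complex II had -0.32 and the DNA and RNA list 0.20. That filter also moved medians across the median gene, to 0.03 for complex I, -0.0011 for assembly factors, 0.05 for the large ribosomal subunit, -0.03 (assembly), 0.02 (import partners) and -0.0073 (regulators). The large subunit also crossed to between 5.7e-05 and 0.0059 with quantile normalization, loess or the median over probe sets, the assembly factors to -0.0048 over 6 genes with updated symbols, and the import partners to 0.02 with the brightest probe set. With the median over probe sets 1 member, COX4I1, was at least 1.5-fold lower. Without COX3, an alternative chosen after seeing the data, complex IV had -0.23. The import median ranged from 0.14 to 0.49 over the alternatives, and the median of all members from 0.0079 to 0.30.

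The 5 members past 1.2-fold above the median gene and the 2 below were the same genes after quantile normalization, loess and the median over probe sets. Values read as log2 gave 3 and 2, as did the line of 25% counted first, an alternative added after seeing the data. The brightest probe set gave 9 and 8, with MRPS30 missing, and the filter on dim probe sets gave 6 and 4, with COX4I1 missing. That filter left some genes with few probe sets, which limits those values. All members had at least 4 probe sets, so a minimum of 4 changed only the median gene.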
